A study of Homo sapiens with 4 samples.

Results

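Peaks of N6-methyladenosine (m6A) were described in OE-19 cells on protein-coding genes whose chosen transcript has no exon junction. A peak was taken when its summit, the base of highest signal, lay in a protein-coding gene's transcript of longest coding sequence (CDS), and when that transcript had exactly 1 exon in GENCODE 44 on hg38. Histone genes were left out. Of 43925 peaks in both lists, 649 met this rule, namely 349 of 24607 (1.42%) in replicate 1 and 300 of 19318 (1.55%) in replicate 2. They lay on 229 of 1032 single-exon genes. For 904 of the 1032 genes every annotated transcript had 1 exon, and 176 of these 904 carried a peak in either replicate.

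To map m6A across the transcriptome, RNA from OE-19 cells was immunoprecipitated with an anti-m6A antibody and sequenced (meRIP-seq). OE-19 is a human cell line from an adenocarcinoma of the esophagogastric junction. The labels give 2 groups of 2 samples, the m6A immunoprecipitates (IP) and their inputs. No treatment, knockdown or transgene is given for any of them, and peak lists were read for the 2 IP samples only. The study describes the replicates as biological, and how they were grown apart is not given in the labels. With 1 group of 2 samples no test over samples could be made, and the 95% intervals below cover counting error or the spread over genes alone.

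m6A is placed on nascent RNA by a METTL3-METTL14 writer complex, mostly at adenines in a short context of which GGAC is a common form. Exon junction complexes, which are deposited near splice junctions, are known to keep the writer away from neighbouring sequence, so that m6A is typical of long internal exons, last exons and the area around stop codons. A transcript with 1 exon carries no such complex. Position, strength and number of peaks can thus be described here on transcripts without junctions. Some of these genes, JUN, FRAT1 and PURA among them, also have annotated transcripts of more than 1 exon. Which transcript the cells make is not known from the peak lists.

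The sequence context is shown first for 10 transcripts, chosen because a GGAC lay close to the summit of their strongest replicate 1 peak. Each line gives 28 bases of the sense strand from the GENCODE 44 transcript, 5′ to 3′, with GGAC in capitals.
ARL14: ggtgtatgttgtGGACagtacagacaaa
HRCT1: tctttcggggctGGACagcccgtcttgt
KCTD11: ccggcccctcctGGACgcgctgcgggaa
RASSF10: ccagcagcaatgGGACagcaagaagcgc
CCDC71L: gaggggacagctGGACccgcaggggagg
CEBPA: gagccgcgaactGGACacgctgcggggc
CEBPB: cgccacggccacGGACaccttcgaggcg
JUNB: ctgcccctttacGGACaccccctcgctt
SOX12: cccggccggcctGGACtgcagcgccctg
ZBTB42: agaccaggccctGGACctgtcgttgaag

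In hg38 these stretches lie at chr3:160677601-160677628 on the plus strand (ARL14), chr9:35906878-35906905 on the plus strand (HRCT1), chr17:7353140-7353167 on the plus strand (KCTD11), chr11:13010830-13010857 on the plus strand (RASSF10) and chr7:106659925-106659952 on the minus strand (CCDC71L). The others lie at chr19:33301395-33301422 on the minus strand (CEBPA), chr20:50191303-50191330 on the plus strand (CEBPB), chr19:12792823-12792850 on the plus strand (JUNB), chr20:326707-326734 on the plus strand (SOX12) and chr14:104801749-104801776 on the plus strand (ZBTB42). The adenine was 1 nt from the summit in CEBPA and 2 nt from it in ARL14, CCDC71L and CEBPB. It was 4 nt away in SOX12, 5 nt in JUNB, 9 nt in HRCT1 and ZBTB42, 14 nt in KCTD11 and 22 nt in RASSF10. The HRCT1, CCDC71L and JUNB stretches lie in the 3′ UTR and the other 7 in the CDS. Not every peak had one so near: the nearest GGAC of the JUN peak was 222 nt upstream of the summit and that of the SOX4 peak 127 nt downstream.

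Over all the peaks, GGAC was found within 50 nt of 196 of 349 summits in replicate 1 (56.2%, 95% Wilson interval 50.9 to 61.3) and of 164 of 300 in replicate 2 (54.7%, 49.0 to 60.2). Of all windows of the same length (101 nt) in the same transcripts, 34.7% and 33.7% held it. The excess was thus 21.4 percentage points in replicate 1 and 20.9 in replicate 2. The reverse complement GTCC, searched on the same strand, exceeded its share of windows by 3.43 and 2.81 points. Among the related motifs GAAC was higher by 5.94 and 8.16 points and AGAC by 7.25 and 9.88 points, while AAAC was lower, with differences of -7.57 and -7.20 points. The 11 other orders of the letters of GGAC averaged an excess of 6.78 points in replicate 1, and the highest of them was CGGA at 13.3. In replicate 2 they averaged 8.89, and the highest was AGCG at 13.2. Of all 12 orders, GGAC had the highest excess in both replicates. Summit windows were also richer in G and C than the transcripts they lay on (60.4% against 54.0% in replicate 1 and 60.8% against 53.7% in replicate 2), and the part of base composition in the excess was not tested.

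**Figure D1:**
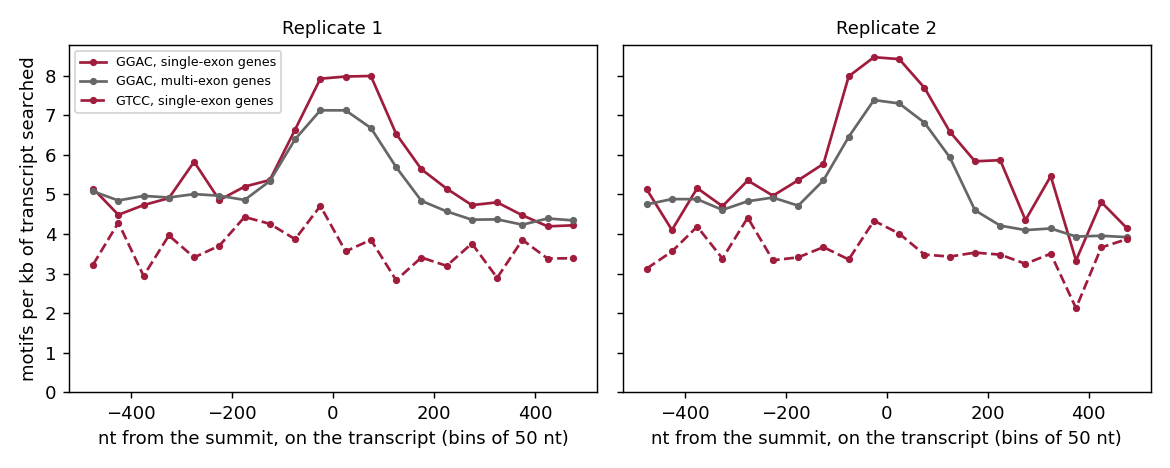
GGAC and its reverse complement GTCC around m6A summits, by distance from the summit on the transcript (x axis, nt, bins of 50 nt) and as motifs per kb of transcript searched (y axis), for single-exon genes (red) and multi-exon genes (grey). On single-exon genes GGAC stood at 7.98 per kb in the 50 nt downstream of the summit in replicate 1 and at 8.42 in replicate 2, and GTCC (dashed) at 3.56 and 4.01.

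On the multi-exon genes the excess of GGAC was 15.6 and 18.5 points. When each gene was given 1 value, the single-exon genes exceeded them by 6.39 points in replicate 1 (0.840 to 11.9) and by 2.54 points in replicate 2 (-3.22 to 8.31), so a difference was not resolved in replicate 2. Against multi-exon summits in exons of 1 kb or more it was not resolved in either replicate (4.06, -1.55 to 9.67, and 1.68, -4.14 to 7.49). Within replicate 1, GGAC was present at 61.2% of the 268 peaks that replicate 2 shared (33.8% of windows) and at 39.5% of the 81 that it did not (37.8% of windows).

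To see which single-exon genes carried m6A, genes were counted. A peak was found on 227 of them in replicate 1 and 206 in replicate 2, and 204 of 1032 (19.8%, 17.5 to 22.3) had one in both. Among all 19607 protein-coding genes considered, 39.4% had a peak in replicate 1, 31.6% in replicate 2 and 31.0% in both. The share of multi-exon genes with a peak in both was 31.6%, which is 11.8 points above the single-exon genes (9.19 to 14.2 by Newcombe's interval). These lists do not give the level of any transcript, so an unmethylated transcript and one that is not made cannot be told apart.

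Single-exon transcripts were shorter, with a median of 1313 nt against 2881 nt, and the 204 with a peak in both replicates had a median of 2699 nt. Of 367 single-exon transcripts under 1 kb, 9 (2.45%) had a peak in both, against 5.62% of multi-exon ones, a difference of -3.17 points (-4.83 to -0.803). Between 1 and 2 kb the shares were 15.9% and 16.9%, between 2 and 3 kb 33.3% and 29.7%, and between 3 and 5 kb 42.4% and 39.4%. In these 3 bins the interval of the difference included 0. Over 5 kb, 34 of 53 single-exon transcripts (64.2%) had a peak in both against 49.8% of multi-exon ones, a difference of 14.3 points (0.763 to 26.0). The single-exon genes were thus lower in the shortest bin and higher in the longest, which held 53 of them and whose interval began at 0.763. Gene families were not set apart in these bins. Olfactory receptor genes, none with a peak, were 200 of the 1032 single-exon genes.

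The genes were the same in both lists for the most part. Of the replicate 2 genes 99.0% were found in replicate 1, and of the replicate 1 genes 89.9% were found in replicate 2. For multi-exon genes these shares were 97.9% and 78.3%, so the first was near that of other protein-coding genes. In 203 of the 204 single-exon genes the peaks of the replicates overlapped. The 2 genes with a peak in replicate 2 alone were CCDC89 at a fold enrichment of 3.63 and an unnamed gene (ENSG00000289747) at 3.74. Fold enrichment here is the ratio of signal to local background that the peak caller wrote. The 23 with a peak in replicate 1 alone ran from DPM3, a subunit of dolichol-phosphate-mannose synthase, at 2.08 to the interferon gene IFNE at 7.35.

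The genes were then described by list, beside the 31.0% of all protein-coding genes and the 19.8% of single-exon genes with a peak in both replicates. Several lists held 3 to 6 genes only, so nothing particular to them is read from their counts. All 5 single-exon genes of the AP-1 and immediate early list had a peak in both replicates. JUN, JUNB and JUND encode bZIP subunits of the AP-1 transcription factor. The JUN peak stood at 7.20 in replicate 1 and 5.05 in replicate 2, with the summit 596 and 581 nt upstream of the stop codon. The JUNB peak stood at 5.01 and 2.62, with the summit 29 and 45 nt downstream of the stop codon. JUND had 2 summits in each replicate, at 3.08 and 2.97 in replicate 1 and at 2.52 and 2.41 in replicate 2. IER5 reached 8.11 and 4.94, and IER5L, whose summit lies in an exon of its antisense gene, 5.93 and 6.15. JUNB and JUND lay below the medians of single-exon gene peaks (7.20 and 5.85) in both replicates. JUN, IER5 and IER5L did so in 1 replicate only. The JUN peak spanned 2507 and 2268 bp and covered 77.0% and 69.6% of the transcript.

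The 3 C/EBP genes on the list, which encode bZIP factors of differentiation and acute phase responses, had a peak in both replicates as well. CEBPA was at 2.81 in replicate 1 and at 3.43 and 2.52 in replicate 2, in sequence that also belongs to exons of other annotated genes. CEBPB was at 4.70 and 2.75, and CEBPD at 6.31 and 6.34. The CEBPD summits lay 31 and 18 nt past the stop codon, the CEBPA summits of the overlapping pair 69 and 95 nt before it, and the CEBPB summits in the early CDS. Each of these peaks except the 314 bp peak of CEBPA at 2.52 covered more than 60% of its transcript.

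Among 3 small GTPase genes all had peaks in both replicates. RHOB, a GTPase of endosomes and the actin skeleton, stood at 4.98 and 4.80 with the summit 77 and 135 nt past the stop codon. RAP2B, a Ras-like protein, had 3 summits in replicate 1 and 2 in replicate 2, between 3.89 and 7.59, with up to 55.7% repeated 32-mers. ARL14, an ADP-ribosylation factor-like protein, had the strongest peak of all single-exon genes in replicate 1.

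Of 28 SOX and FOX genes, which encode HMG box and forkhead transcription factors, 8 (28.6%) had a peak in both replicates, near the 31.0% of all protein-coding genes. SOX2, a pluripotency and foregut factor, reached 7.36 and 7.53, although 40% of the 32-mers around its strongest summit recur elsewhere in the genome. The 32-mers are all the stretches of 32 bases within 50 nt of a summit, so a high share marks a peak whose reads could come from another copy. SOX4 reached 9.0 and 6.87, SOX12 8.5 and 6.14 and SOX21 8.98 and 5.6. SOX12 had 3 summits in each replicate at matching places, 2 in the CDS and 1 about 1 kb into the 3′ UTR. Among the forkhead genes FOXL1 reached 17.4 and 9.82, FOXC1 8.25 and 5.53, FOXD2 7.03 and 6.07 and FOXQ1 3.65 and 3.18. The FOXL1 peaks overlapped, but their summits lay 935 bp apart. The other 20 members, SOX1, SOX3, SOX11 and FOXE1 among them, had no peak in either list. None of 5 POU genes had a peak in both, and POU3F3 had 1 in replicate 1 at 4.57.

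Zinc finger genes are mostly multi-exon, but 5 of 6 single-exon ones had a peak in both (ZBTB42, ZNF623, ZNF830, ZXDA and ZXDB) and ZNF80 had none. ZBTB42 had 3 matched summits, at 10.8, 10.5 and 3.03 in replicate 1 and at 7.46, 7.62 and 3.6 in replicate 2. ZNF830 reached 7.25 in replicate 1 and 15.2 in replicate 2, and was thus higher in replicate 2, unlike most genes. ZXDA and ZXDB are near-identical copies on the X chromosome. Their peaks at 10.7 and 5.84, and at 18.4 and 9.15, hold up to 100% repeated 32-mers and could belong to either copy.

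Of 22 G protein-coupled receptor genes 6 (27.3%) had a peak in both, near the 31.0% of all protein-coding genes. The list was made from symbol stems and does not hold every single-exon receptor gene. ADRA2A, ADRA2C and ADRB1 encode adrenergic receptors. ADRA2A had 3 summits in replicate 1, at 16.1, 11.6 and 7.57, and 4 in replicate 2, at 6.90, 4.87, 3.27 and 2.63. ADRB1 had 1 summit in each, at 7.14 and 9.69, placed 55 and 35 nt before the stop codon. ADRA2C reached 8.21 and 7.39 with a summit within 5 nt of the stop codon in both. HTR1B, a serotonin receptor, reached 7.90 and 7.42, the orphan receptor GPR135 12.1 and 9.93, and the sphingosine 1-phosphate receptor S1PR4 7.92 and 6.07. HTR1A and the other 15 had no peak.

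Several genes of a list of adaptors and regulators were described as well. PURA and PURB encode single-stranded nucleic acid-binding proteins. PURA had the longest transcript of those with peaks in both (11511 nt), and its peaks, at 14.5 in replicate 1 and at 8.39 and 6.13 in replicate 2, all lay in the CDS or 5′ UTR at its far upstream end. PURB, of 9232 nt, showed the same layout at 6.27 and 5.53. KCTD12, an auxiliary subunit of the GABA-B receptor, reached 9.07 and 8.19, and THBD, or thrombomodulin, 7.59 and 6.37. INSM1, IRS4 and MAFA had no peak.

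Of 3 genes on the heat shock list HSPA1A and HSPA1B had peaks in both, between 2.61 and 3.98, but the 2 copies share nearly all of their coding sequence. HSPA2, which was not on the list and was added after its values were seen, reached 5.70 and 7.85 with up to 20% repeated 32-mers. HSPA6 had 1 in replicate 1 at 4.01. Of 52 genes on a list of retrocopies and multicopy families 8 had a peak in both. Among them CSTF2T, a retrocopy that encodes a form of the cleavage stimulation factor, reached 10.1 and 7.08 in sequence with no repeated 32-mer. TSPYL1 reached 11.5 and 10.8 and TSPYL4 10.7 and 9.72, also without repeats. F8A1, F8A2 and F8A3, copies of one gene on the X chromosome, had 100% repeated 32-mers, and their ratios of 21.2, 7.80 and 6.86 in replicate 1 cannot be assigned to a copy.

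The olfactory receptor, taste receptor, interferon and keratin-associated families were listed as mostly silent in epithelium. Whether their transcripts are made in these cells is not known from the peak lists. None of 200 single-exon olfactory receptor genes had a peak in either list, which allows a share of up to 1.5%. None of 24 taste receptor genes had one (up to 12.5%), and none of 15 genes for interferons alpha, beta and omega (up to 20%). Of 94 keratin-associated protein genes KRTAP5-1 (13.1 and 12.4) and KRTAP5-2 (9.74 and 10.7) had a peak in both, with up to 32.9% and 15.7% repeated 32-mers. Of 16 protocadherin beta genes PCDHB2 alone did, at 4.65 and 4.23 and with 45.7% and 78.6% repeated 32-mers. A further PCDHB2 peak, in replicate 2 alone, stood at 9.69, and repeats reached 100% over the peaks of this gene. Olfactory receptor genes made up 200 of the 1032 genes counted.

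Of the 12 genes with the strongest peaks found in both replicates, 11 are drawn in the map of peaks along transcripts. ARL14 stood at 29.9 in replicate 1 and 18.3 in replicate 2, with 1 peak of 994 and 1043 bp over most of a 1289 nt transcript. F8A1 stood at 21.2 and 23.5, with up to 100% repeated 32-mers, so its peaks could belong to another copy. HRCT1 stood at 28.8 and 14.5, and its peak covered 89.3% and 96.5% of a 935 nt transcript. Of these 3 genes, the strongest on the list, ARL14 and HRCT1 were lower in replicate 2 and F8A1 was not.

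KCTD11, an adaptor of the CUL3 ubiquitin ligase, followed at 23.3 and 14.4. RASSF10, of the Ras association domain family, had a summit at 20.6 and 14.1 near the end of the CDS and a weaker one at 6.84 and 3.5 upstream. FRAT1, an inhibitor of GSK3 in Wnt signalling, had 1 at 18.0 and 12.8 just before the stop codon and 1 at 11.4 and 4.20 in the 3′ UTR. The order of the 2 summits within these genes was the same in both replicates. MGAT2, a Golgi enzyme of complex N-glycan synthesis, stood at 14.1 and 14.8 and CCDC71L at 9.66 and 18.6. In CCDC71L the only peak ran from the CDS into the start of the 3′ UTR, with the summit 251 and 172 nt past the stop codon, and the rest of a UTR of 5832 nt held no peak.

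**Figure D2:**
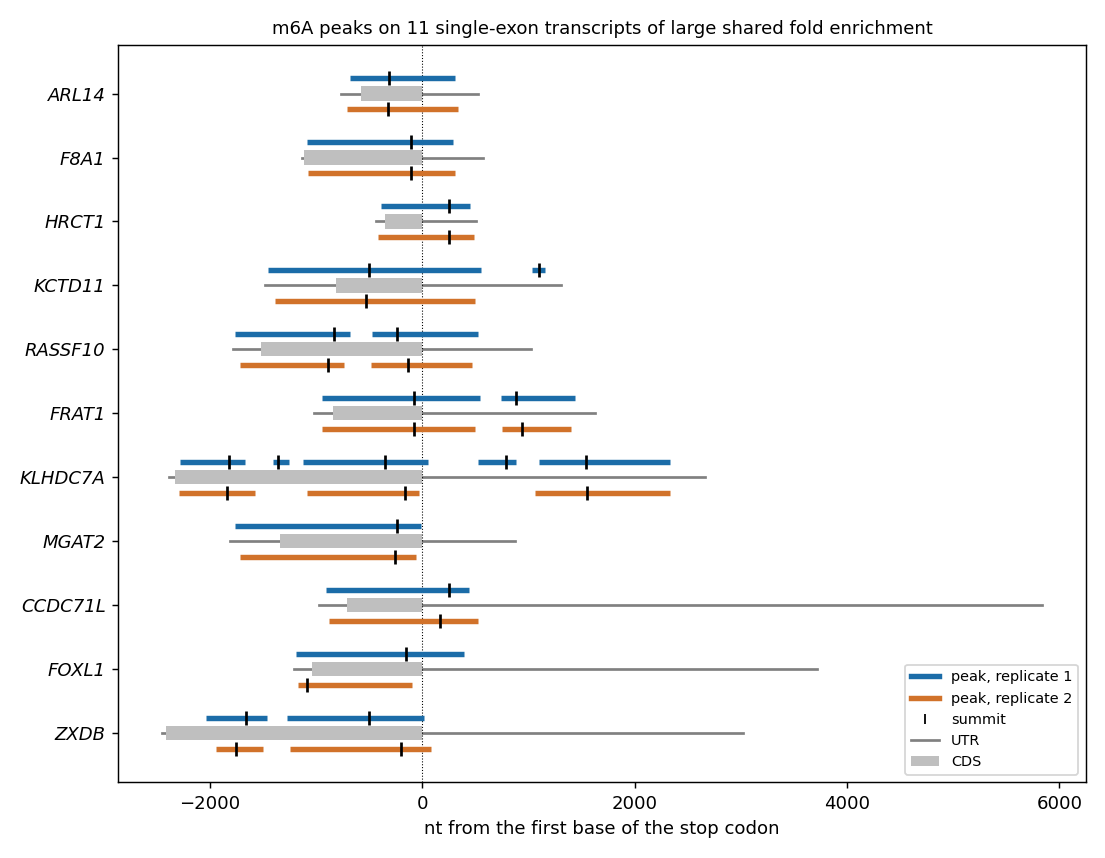
Single-exon transcripts, 11 of the 12 whose peak found in both replicates had the largest geometric mean of fold enrichment, drawn to scale in nt from the stop codon (x axis), with replicate 1 peaks above and replicate 2 peaks below each transcript and summits as black ticks. Most peaks cover the CDS or the region around the stop codon. Beyond the peaks drawn near the stop codon, the 3′ UTRs of CCDC71L (5832 nt from the stop codon), FOXL1 (3720 nt) and ZXDB (3020 nt) hold no further peak. KLHDC7A and FRAT1 each have a further summit in the 3′ UTR in both replicates.

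Fold enrichment over all single-exon gene peaks had a median of 7.20 in replicate 1 (interquartile range 5.02 to 9.66) and 5.85 in replicate 2 (4.28 to 8.09). The lowest were those of DPM3 at 2.08 and of PCBP1, a poly(C)-binding protein, at 1.63. The medians of multi-exon gene peaks were 5.18 and 4.68. With 1 value for each gene, the mean log2 fold enrichment was higher on single-exon genes by 0.40 in replicate 1 (0.32 to 0.49) and 0.32 in replicate 2 (0.24 to 0.41). Against multi-exon summits in exons of 1 kb or more it was higher by 0.20 (0.11 to 0.28) and 0.21 (0.12 to 0.29). The difference had the same sign in 2 of 2 replicates, and the smallest two-sided exact p that 2 paired samples allow is 0.5.

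The 259 pairs of peaks that overlapped between replicates had summits a median of 31 bp apart, and 81.5% were within 100 bp. The log2 fold enrichments of the 2 replicates went together over the pairs (Pearson r 0.693, Spearman rank correlation 0.648, as a description over peaks of the same 2 libraries). Replicate 1 was higher in 210 of 259 pairs (81.1%), with a median log2 ratio of replicate 1 over replicate 2 of 0.43. Multi-exon pairs gave 80.2% and the same median of 0.43. The size of the ratio therefore differed between the lists as a whole, and differences between genes were read within each replicate.

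**Figure D3:**
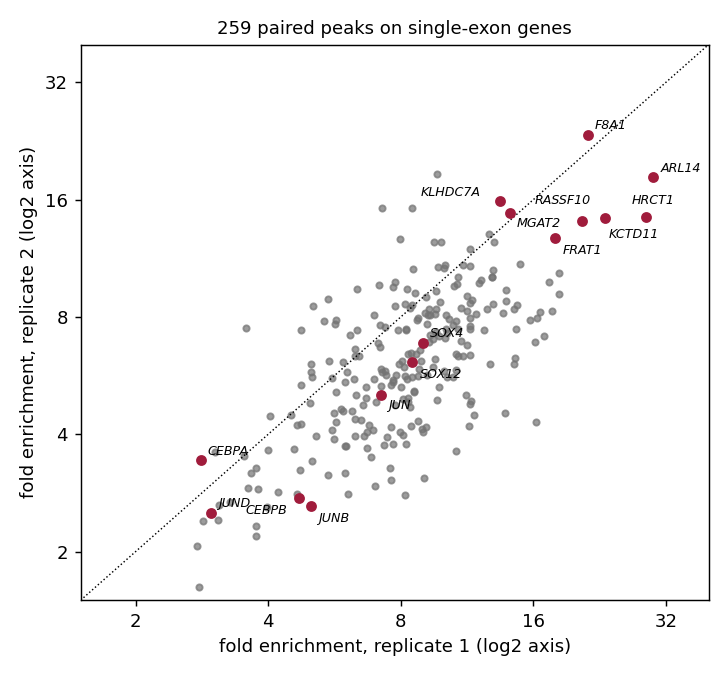
Fold enrichment in replicate 1 (x axis) and replicate 2 (y axis), both on log2 axes, for the 259 pairs of overlapping peaks on single-exon genes, with named genes in red and equality as a dotted line. Most points, 210 of 259, lie below the line, ARL14 and HRCT1 far to the right and JUND, CEBPA, CEBPB and JUNB at the low end.

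Next, peaks found again in the other replicate were counted. Of the replicate 1 peaks 76.8% (72.1 to 80.9) overlapped a replicate 2 peak, against 56.7% of all peaks of replicate 1 and 61.6% of those on multi-exon genes. The difference from multi-exon genes was 15.2 points (10.5 to 19.4), and 4.94 points (0.137 to 9.18) against those in last exons. The share was close to the 74.7% of multi-exon peaks in exons of 1 kb or more and below the 83.4% (81.2 to 85.4) in internal exons of that length, so a higher share was seen against the multi-exon genes as a whole and not against their long exons. In the other direction 97.7% of replicate 2 peaks were shared, against 74.6% of all peaks of replicate 2 and 96.2% on multi-exon genes (difference 1.52 points, -0.913 to 2.77). Strength moved with sharing, as shared replicate 1 peaks had a median of 8.26 and unshared ones 4.57. At a fold enrichment from 6 to 9, 90.3% of single-exon and 78.4% of multi-exon peaks of replicate 1 were shared (difference 11.9 points, 4.93 to 16.3). From 9 upward the shares were 99.1% and 94.2% (4.84 points, 0.592 to 6.05). Below 4 the shares were 42.6% and 36.1%, and from 4 to 6 they were 48.8% and 57.0%, and both intervals included 0. In replicate 2 the interval included 0 in every range of strength. These comparisons by strength were not matched for exon length. The 7 unshared replicate 2 peaks lay on CCDC89, CLDN9, MAP10, PCDHB2, PGBD4, RAB6C and TSPYL4.

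Peaks on single-exon genes were wide. The median was 695 bp in replicate 1 (275 to 1343) and 767.5 bp in replicate 2 (341.5 to 1361), against 324 and 371 bp on multi-exon genes. Multi-exon summits in exons of 1 kb or more had medians of 417 and 426 bp, and those in internal exons of that length 592 and 534 bp. In exons under 1 kb the medians were 263 and 310 bp. Width was measured on the genome, introns included. By gene, the peaks of single-exon genes were wider than those in exons of 1 kb or more by 440 bp (347 to 533) and 422 bp (334 to 509).

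Peaks of 1 kb or more made up 141 of 349 (40.4%) in replicate 1 and 112 of 300 (37.3%) in replicate 2. In multi-exon exons of 1 kb or more the shares were 16.9% and 15.2%, and in internal exons of that length 29.4% and 23.3%. More than 50% of the transcript lay inside 26.6% and 23.0% of the peaks, and 5.73% and 5.0% ran past an end of the transcript. The widest named ones were those of SOX4 (3135 bp) and FZD7 (3012 bp), a Wnt receptor, in replicate 1, and that of RBM15B (2931 bp) in replicate 2. RBM15B encodes a subunit of the m6A writer complex itself.

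**Figure D4:**
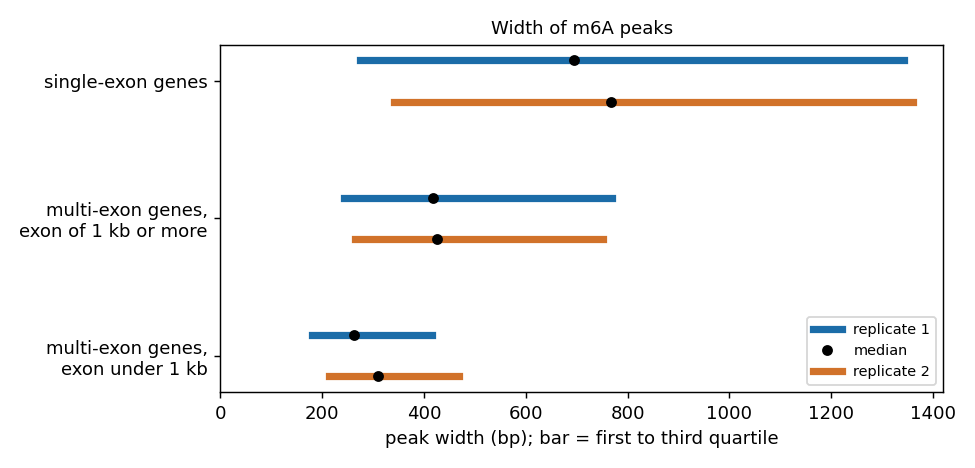
Width of m6A peaks in bp (x axis; bars run from the first to the third quartile and points mark the median) for single-exon genes, for multi-exon summits in exons of 1 kb or more and for those in shorter exons, in replicate 1 (blue) and replicate 2 (orange). The medians for single-exon genes, 695 and 767.5 bp, lie above those of both multi-exon groups.

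To describe position along the transcript, summits were counted in 4 regions and set beside the share of transcript length that each region held in the same transcripts. The CDS outside the stop codon window held 51.6% of summits against 35.6% of length in replicate 1 and 51.7% against 34.9% in replicate 2, a ratio of 1.45 and 1.48. The stop codon window, which reached 200 nt to either side of it, held 23.8% against 15.8% and 30% against 15%, a ratio of 1.51 and 2.0. The rest of the 3′ UTR held 17.5% against 39.3% and 11.7% against 41.1%, a ratio of 0.445 and 0.284. The 5′ UTR held 7.16% against 9.36% and 6.67% against 8.93%, a ratio of 0.765 and 0.747. Summits thus lay in the CDS and at the stop codon more, and in the rest of the 3′ UTR less, than the length of these regions.

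On multi-exon genes the corresponding ratios were 1.05 and 1.04 in the CDS, 2.22 and 2.59 at the stop codon, 0.484 and 0.517 in the rest of the 3′ UTR and 1.45 and 0.895 in the 5′ UTR. With 1 value for each gene, the excess over length in the CDS was larger on single-exon genes by 16.8 points (11.6 to 22) and 19.3 points (13.6 to 24.9). At the stop codon it was smaller, by -8.46 points (-13.6 to -3.36) and -6.63 points (-12.3 to -0.997). In the 5′ UTR the difference was -4.68 points (-7.51 to -1.85) in replicate 1 and -1.94 (-4.39 to 0.505) in replicate 2. In the rest of the 3′ UTR it was -3.65 (-7.74 to 0.425) and -10.7 (-15.1 to -6.32). The plain share of summits in the CDS did not differ beyond counting error (2.37 points, -2.92 to 7.63, and 3.55, -2.17 to 9.23), and neither did that in the stop codon window (-0.838, -5.06 to 3.94, and 2.71, -2.27 to 8.18). These plain shares were counted by peak, unlike the values by gene. By peak in replicate 1, the CDS outside the window held 35.6% of length on single-exon genes and 46.9% on multi-exon genes. The stop codon window held 15.8% against 11.1%. The part of length in the contrasts by gene was not tested.

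**Figure D5:**
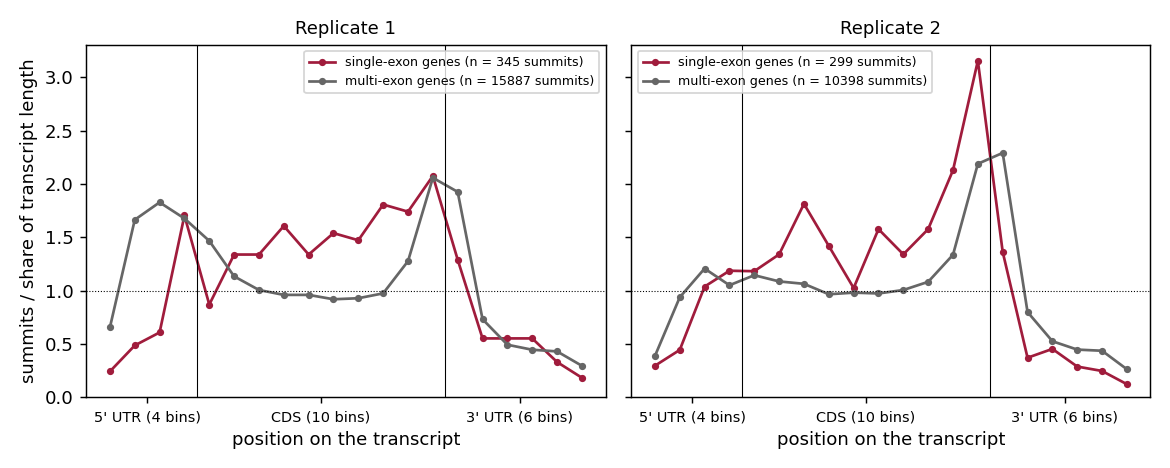
Density of summits along the transcript, as the share of summits over the share of transcript length (y axis; 1 is the density of an even spread), in 4 bins of the 5′ UTR, 10 of the CDS and 6 of the 3′ UTR (x axis), for single-exon (red) and multi-exon genes (grey). On single-exon genes the density was above 1 in every bin of the CDS but the first in replicate 1, and peaked in its last bin at 2.08 and 3.15.

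Within the CDS, cut into 3 equal parts, the single-exon summits of replicate 1 fell 26.5% in the first part, 33.0% in the middle and 40.4% in the last (n = 230). In replicate 2 the shares were 27.5%, 28% and 44.5% (n = 211). Multi-exon genes had 33.3% in the first part in replicate 1 and 30.4% in replicate 2. The difference in the first part was -6.81 points (-12.2 to -0.682) and -2.90 points (-8.60 to 3.58). At the ends of the transcript summits were rare: 4 and 3 lay within 100 nt of the 5′ end and 2 and 1 within 100 nt of the 3′ end, where 4.33% and 3.86% of length lay at each end.

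Strength varied little by region. The median was highest in the stop codon window (7.92 and 6.45), followed in replicate 1 by the CDS (7.14) and in replicate 2 by the rest of the 3′ UTR (6.16). The lowest median was in the 5′ UTR (6.01 and 5.34). All of these medians lay within the interquartile range of the others.

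Most genes had a single summit. Each peak carries 1 summit, so the count depends on how signal was divided into peaks. Single-exon peaks were wider, with medians of 695 and 767.5 bp against 324 and 371 bp on multi-exon genes. The part of width in the counts was not tested. In replicate 1, 138 genes had 1, 61 had 2, 24 had 3, 3 had 4 and 1 had 5. In replicate 2 the counts were 131, 59, 13 and 3 for 1 to 4 summits. The mean per gene with a peak was 1.54 and 1.46, against 2.17 and 1.77 on multi-exon genes. Under 1 kb the means were alike, at 1.29 and 1.10 on single-exon genes and 1.28 and 1.12 on multi-exon genes. Between 1 and 2 kb they were 1.14 and 1.18 against 1.47 and 1.29. Between 2 and 3 kb they were 1.52 and 1.41 against 1.78 and 1.40, so replicate 2 showed no gap there. Between 3 and 5 kb they were 1.68 and 1.57 against 2.13 and 1.68, and over 5 kb 2.06 and 1.85 against 2.86 and 2.26.

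KLHDC7A, a kelch domain protein, had 5 summits in replicate 1 and 3 in replicate 2. The 3 found in both stood at 13.5, 12.7 and 14.7 in replicate 1 and at 15.9, 6.07 and 7.47 in replicate 2, the first 2 in the CDS and the last in the 3′ UTR. FZD1, a Wnt receptor, had 2 summits, at 9.75 and 16.3, in replicate 1, and 4 in replicate 2, between 4.30 and 5.72. The 1705 bp peak of replicate 1 overlapped 3 narrower peaks of replicate 2. TIGD1, derived from a Tigger transposon, had 4 in each, between 4.03 and 7.70, but with up to 100% repeated 32-mers.

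Some members cannot be assigned with certainty, as the lists carry no strand. The summit also lay in an exon of another gene in 49 (14%) and 37 (12.3%) of the peaks, and in 37 and 27 that gene was on the other strand. More than 50% of the 32-mers around the summit recurred in the genome in 32 (9.17%) and 21 (7.0%), and 287 (82.2%) and 254 (84.7%) held no repeated 32-mer.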

How the data were processed

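Anti-m6A meRIP-seq was performed on total RNA of OE-19 cells with a directional library kit (2 IP and 2 input samples; labels describe UV fixation and lysis, the methods fragmentation of total RNA). Per the methods reads were mapped with TopHat2, whereas the submitters' processing notes list fastp and HISAT2. Both name MACS2, run per sample, and hg38. Versions and whether the input served as control are not given in the sources used here. The deposited peak lists hold fold enrichment (a ratio over local background), −log10 of p-values and q-values, a score made from the latter, and the summit, with no strand and no read number, so the depth is unknown and no count model was used. The inputs were not analysed here.

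Summits were placed on GENCODE 44 transcripts (longest CDS, ties by the Ensembl canonical tag) in Python 3.11.15 with numpy 2.4.6, pandas 2.3.3 and scipy 1.17.1. Multi-exon genes were all other protein-coding genes, histones left out. Peaks were shared at an overlap of 1 bp. The stop codon window was 200 nt and the motif window 50 nt on each side. Shares have 95% Wilson and differences Newcombe intervals. Values by gene are the means over its peaks, and the interval of their difference comes from the standard errors over genes. Peaks are not replicates, and these intervals cover no variation between cultures. The steps were tested on simulated data. Repeated 32-mers were counted over 24 chromosomes.

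Named genes were the 12 with the largest shared fold enrichment, the 5 with most summits, members of 15 lists, and genes at the ends of a stated range. ENSG00000289747, CCDC89 and the 7 unshared replicate 2 peaks were named after their values were seen, as were the transcripts chosen for their nearby GGAC. A few genes that these rules name are not reported here. Members and lists were chosen with earlier results of these data known. Alternatives covered thresholds on q and fold enrichment, the transcript choice, overlapping genes, multicopy families, replicates left out, sharing rules, windows and comparison peaks.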

Additional observations from a re-analysis of the deposited data

How the results depend on the processing

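Values are means over the 2 replicates. Of 204 values recomputed under the alternatives, none reversed, 151 moved by less than the spread between replicates (1 SD) or, for counts, by less than 1.5 times, and 53 moved by more. Without replicate 1 or replicate 2, 300 to 349 peaks were left. Apart from counts, leaving 1 replicate out cannot move a mean of 2 by as much as 1 SD. Those values fell among the 151 by construction and show nothing about stability.

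The single-exon minus multi-exon difference in mean log2 fold enrichment (0.36 over peaks) was 0.097 among peaks at a fold enrichment of 5 or more, 0.25 against last exons and 0.20 against exons of 1 kb or more. The difference in median width (383.75 bp) was 509.25 bp at q of 1e-05 or less, 475.25 bp at a fold enrichment of 5 or more, 343.75 bp against last exons, 309.75 bp against exons of 1 kb or more, 354.75 bp with ties broken by transcript length and 423.5 bp without repeated 32-mers. The median width (731.25 bp) was 909.75 and 931.25 bp at the stricter q and fold enrichment, where summits per gene (1.5) fell to 1.37 and 1.27 and the median fold enrichment (6.53) was 7.89 in the latter. The shared share (87.2%) was 70.4% when 50% of both peaks had to overlap and 67.7% for summits within 100 bp.

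The CDS excess over length (16.4 points) was 15.3 at a fold enrichment of 5 or more, 17.4 in genes with 1-exon transcripts only, 16.9 without summits in other genes' exons, 20.1 and 12.9 with stop codon windows of 100 and 400 nt, 24.1 at peak midpoints and 15.4 without repeated 32-mers. The stop codon excess (11.5) was 6.45 with 100 nt and 6.87 at peak midpoints. The 5′ UTR difference (-2.23) was -2.18 and -2.11 at q of 0.01 and 1e-05, -2.73 at a fold enrichment of 5 or more, -1.29 in genes with 1-exon transcripts only, -1.99 on canonical transcripts, -1.73 without other genes' exons, -2.51 without multicopy families, -2.29 and -2.09 with the other windows, -3.40 at midpoints, -1.67 for shared peaks, -3.37 with ties by length and -2.15 without repeated 32-mers. The first part of the CDS (27.0%) held 25.1% at q of 1e-05, 22.1% at a fold enrichment of 5 or more (the last part, 42.5%, held 47.6%), 28.7% in genes with 1-exon transcripts only and 25.7% without other genes' exons. The GGAC excess (21.2 points) was 23.1 at a fold enrichment of 5 or more, 22 in genes with 1-exon transcripts only, 21.6 on canonical transcripts, 21.6 without other genes' exons, 20.6 without multicopy families, 12.2 and 25.1 with windows of 25 and 100 nt, 24.2 for shared peaks and 20.1 with ties by length.

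Ties by length, repeated 32-mers left out and exons of 1 kb or more were added after seeing the data. The cause of these shifts was not tested. No paired analysis was possible because only 1 of the 2 groups has peak lists. Depth, which limits weak peaks, is unknown.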

Other observations

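Other families of single-exon genes, grouped by symbol after their values were seen and kept only where at least 3 members had a peak, were described in the same way. Their counts are therefore no result beside the 19.8% of all single-exon genes with a peak in both. Of 10 claudin genes, which encode tight junction proteins, CLDN3, CLDN4, CLDN9 and CLDN23 had a peak in both replicates, although the CLDN9 peaks did not overlap. CLDN3 stood at 13.8 in replicate 1 and 4.55 in replicate 2, and CLDN4 at 2.84 and 2.39. Both had their summit in the 3′ UTR, 133 and 156 nt past the stop codon in CLDN3 and 103 and 100 nt past it in CLDN4, and in both the peak covered more than 90% of the transcript. Of 6 Frizzled genes, which encode Wnt receptors, FZD1, FZD7 and FZD8 had a peak in both, with FZD7 at 10.8 and 10.1 and FZD8 at 5.68 and 7.69, and FZD2, FZD9 and FZD10 did not. Of 4 EID genes, which encode inhibitors of differentiation that act on EP300, EID1 (7.22 and 5.87), EID2 (9.67 and 4.90) and EID3 (5.59 and 5.59) had one in both and EID2B in replicate 1 alone (5.44).

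Some families were called in near-identical copies. The CTAGE, RIMBP3 and RAB6 copies had up to 100% repeated 32-mers, and 4 of 6 CTAGE genes had a peak in replicate 1 against 2 in replicate 2. TTC30A (6.72 and 8.89) and TTC30B (10.0 and 10.7) held up to 52.9% and 68.6% repeated 32-mers.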
